A study of Mus musculus with 6 samples.

Results

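The alpha crystallins Cryaa and Cryab and the small heat shock genes Hspb1, Hspb2, Hspb6 and Hspb8 were followed in lenses of newborn WT and Fyco1-/- mice. The 6 genes were taken by gene symbol from a table of 22298 entries, and each symbol was found there. Total RNA came from ocular lenses of C57BL/6 mice on postnatal day 0, with 3 libraries from WT animals and 3 from Fyco1-/- animals. Each library was a separate pool of 10 lenses, named A, B or C within its genotype, so that single animals were not resolved and p-values measure the spread between pools. The design of the Fyco1-/- allele is not given in the sources used here. Levels are FPKM, by definition read fragments scaled to gene length and to the mapped reads of the library. The gene annotation behind the lengths and the total used for scaling are not given in the sources used here. Comparisons between genes, which rest on values per length, are therefore approximate.

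Small heat shock proteins share a conserved alpha-crystallin domain and assemble into large, changing oligomers that hold unfolding proteins in solution without using ATP. Cryaa is largely restricted to the lens, whereas Cryab, Hspb1, Hspb2, Hspb6 and Hspb8 are also made in heart and skeletal muscle. In the lens fibre cell, which loses its organelles and hardly replaces its proteins, the alpha crystallins serve both as refractive proteins and as chaperones for the beta and gamma crystallins, and mutations of CRYAA and CRYAB cause cataract. FYCO1 is an adaptor that links autophagosomes to kinesin for transport along microtubules, and loss of FYCO1 causes congenital cataract in humans.

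Promoters are shown because lens and heat shock factors are known to act on these genes through short elements near the start. The RefSeq promoter table (GRCm38.p6) held 5 promoters of 4 members, namely Cryaa, Hspb1, Hspb6 with 2 starts, and Hspb8. Each window runs from 250 bases before a transcription start to 50 after it, and the 250 bases before the start are printed 5′ to 3′ on the gene's own strand. They are chr17:31677681-31677930 (plus strand) for Cryaa, chr5:135887669-135887918 (plus) for Hspb1, chr7:30553051-30553300 (plus) for the downstream start of Hspb6, and chr13:113663677-113663926 (minus) for Hspb3, a further family gene described with Hspb2. Capitals mark GAANNTTC, a pair of inverted heat shock units, TGCTGAC, the core of the element that Maf factors bind, and the TATA forms TATAAA and TATATA.
Cryaa: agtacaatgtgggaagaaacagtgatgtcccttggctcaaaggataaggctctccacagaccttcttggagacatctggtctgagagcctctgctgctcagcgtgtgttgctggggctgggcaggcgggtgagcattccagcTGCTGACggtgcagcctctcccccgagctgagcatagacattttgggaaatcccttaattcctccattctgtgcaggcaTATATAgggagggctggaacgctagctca
Hspb1: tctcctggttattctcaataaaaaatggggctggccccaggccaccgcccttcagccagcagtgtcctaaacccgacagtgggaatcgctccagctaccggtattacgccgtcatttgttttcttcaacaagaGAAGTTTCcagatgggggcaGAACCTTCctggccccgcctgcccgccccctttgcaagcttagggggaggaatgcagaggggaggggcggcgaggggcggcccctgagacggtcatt
Hspb6: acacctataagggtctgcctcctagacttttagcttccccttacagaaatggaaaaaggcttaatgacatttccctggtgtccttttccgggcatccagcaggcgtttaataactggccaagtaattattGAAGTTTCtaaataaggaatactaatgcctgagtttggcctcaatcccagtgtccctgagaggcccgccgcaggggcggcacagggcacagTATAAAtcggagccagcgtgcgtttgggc
Hspb3: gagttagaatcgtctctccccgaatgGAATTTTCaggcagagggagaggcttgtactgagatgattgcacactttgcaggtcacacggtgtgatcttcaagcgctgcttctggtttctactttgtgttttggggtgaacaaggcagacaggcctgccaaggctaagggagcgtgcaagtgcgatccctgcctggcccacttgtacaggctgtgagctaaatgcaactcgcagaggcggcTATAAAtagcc

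All motifs were searched on both strands of the whole 300-base window. GAANNTTC was in 3 of the 5 member promoters, against 7.86% of the 32851 promoters in the table. In Hspb1 it occurred at positions -117 to -110 and -97 to -90 from the start, in Hspb6 at -120 to -113, and in Hspb8 at 3 to 10 after the start, outside the printed stretch. The opposite arrangement, TTCNNGAA, was in none of the 5 and in 8.52% of all promoters. TGCTGAC was in the Cryaa window alone among the members, at -108 to -102, and in 4.67% of all promoters. TATATA lay at -29 to -24 of Cryaa (5.67% of all promoters) and TATAAA at -29 to -24 of Hspb6 (13.6% of all). Hspb3 had GAANNTTC at -224 to -217 and TATAAA at -11 to -6. These matches describe the letters of the windows and say nothing of binding in these lenses.

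Summed FPKM ran from 741913 to 760459 per library, and the depth, estimated from the spacing of low FPKM values, was 17.1 to 20.1 M reads. Fyco1 itself was at 5.40, 5.21 and 5.11 FPKM in the WT pools (A to C) and at 4.61, 4.59 and 4.87 FPKM in the Fyco1-/- pools (A to C). Without knowledge of the deleted part, this gene-level value does not check the labels. All 11 lens fibre markers were measured, with a summed level of 70656 to 72301 FPKM in WT and 72406 to 74085 FPKM in Fyco1-/-, and the 8 lens epithelium markers summed to 534 to 589 FPKM in WT and 447 to 475 FPKM in Fyco1-/-. The 12 skeletal and cardiac muscle markers summed to 13.2, 68.7 and 10.8 FPKM in the WT pools (A to C) and to 5.39, 5.67 and 7.07 FPKM in the Fyco1-/- pools (A to C), so that WT B stood apart. Retina markers did not exceed a sum of 1.53 FPKM in any library, and cornea markers did not exceed 1.17 FPKM. These sums rest on 7 of 8 retina and 4 of 6 cornea markers, since Pou4f2, Krt12 and Kera were not matched in the table. No matched marker of these lists was at 0 in all 6 libraries.

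The 6 genes ranged from 1.26 FPKM, for Hspb8 in WT A, to 122145 FPKM, for Cryaa in Fyco1-/- C, and their order was the same in every library. Cryaa was the most abundant entry of the whole table in all 6 libraries and held 15.4 to 16.1% of the summed FPKM. Cryab ranked 12 in each library, with 0.981 to 1.12% of the summed FPKM. Below them came Hspb1, Hspb2, Hspb6 and Hspb8. The mean level over all libraries fell 14.9-fold from Cryaa to Cryab, 52.7-fold from Cryab to Hspb1, 3.97-fold from Hspb1 to Hspb2, 5.20-fold from Hspb2 to Hspb6 and 4.07-fold from Hspb6 to Hspb8. No neighbours in this order overlapped in any library. Together the 6 genes made up 16.5, 16.4 and 16.8% of the summed FPKM in the WT pools (A to C) and 16.8, 17.0 and 17.2% in the Fyco1-/- pools (A to C). The lowest Fyco1-/- share lay just above the highest WT share, and the difference of 0.435 percentage points had an exact two-sided permutation p = 0.1, the smallest that 3 against 3 libraries can give. With quantile normalization the difference was 0.0045 points (exact permutation p = 0.2). That value was nearly fixed in advance, since Cryaa and Cryab hold the same rank in every library. Median-of-ratios scaling leaves shares within a library unchanged, so the scaled sum was divided by the same total, the mean summed FPKM, in each library. The groups then differed by 1.16 points of that total (exact permutation p = 0.3). Set against a total without crystallins, the sum of the 6 genes differed by 2.31 percent of that total (exact permutation p = 0.3). This total leaves out Cryaa and Cryab, which the sum keeps, so the value is not a share of a whole. Its size cannot be compared with the differences above, which rest on the total of all entries.

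**Figure D1:**
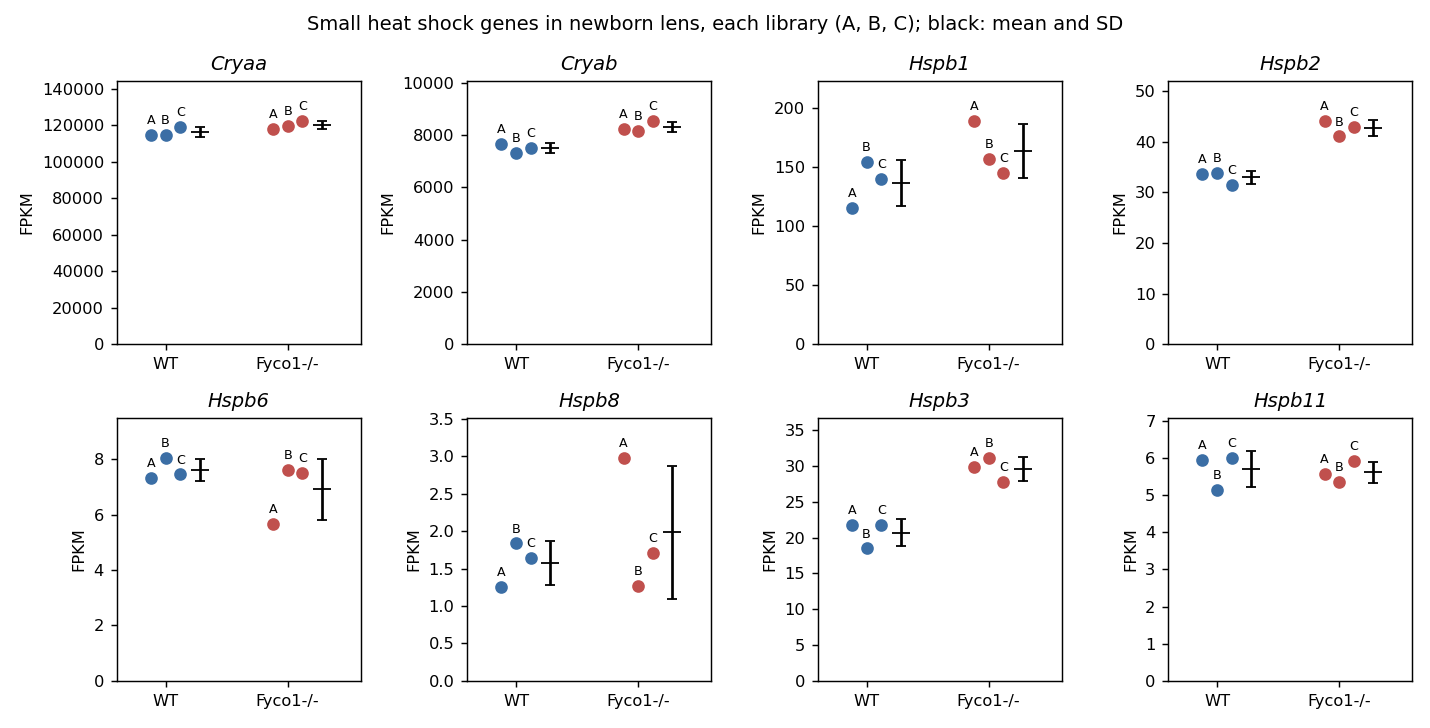
Level in FPKM (linear axis from 0, its own scale in each panel) of the 6 genes and of Hspb3 and Hspb11, with 1 point per library, blue for WT and red for Fyco1-/-, and the mean and SD in black. The genotypes are apart in Cryab, Hspb2 and Hspb3 and overlap in the others.

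Of the 6 genes, all of which passed the filter on low values, 2 were called higher in Fyco1-/- lenses by limma at a Benjamini-Hochberg adjusted p under 0.05 and 0 were called lower. None of the other 4 had an unadjusted p under 0.05, and the authors' deposited DESeq2 values also call 2 higher and 0 lower. Among all 12001 tested genes 8.43% were called, 3.42% higher and 5.02% lower. Of those calls 40.5% were higher, or 57.0% with median-of-ratios scaling and 48.2% with quantile normalization. The called genes were Cryab and Hspb2, which lie next to each other on chromosome 9. In those same 2 genes the 3 values of one genotype all lay above the 3 of the other, as they did in 29.7% of all tested genes. The log2 fold change was positive for 5 genes and negative for Hspb6 alone, with a median of 0.18 against -0.04 over all tested genes. The count of 2 was the same without WT B, but it was 1, Hspb2, with median-of-ratios scaling and with quantile normalization.

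**Figure D2:**
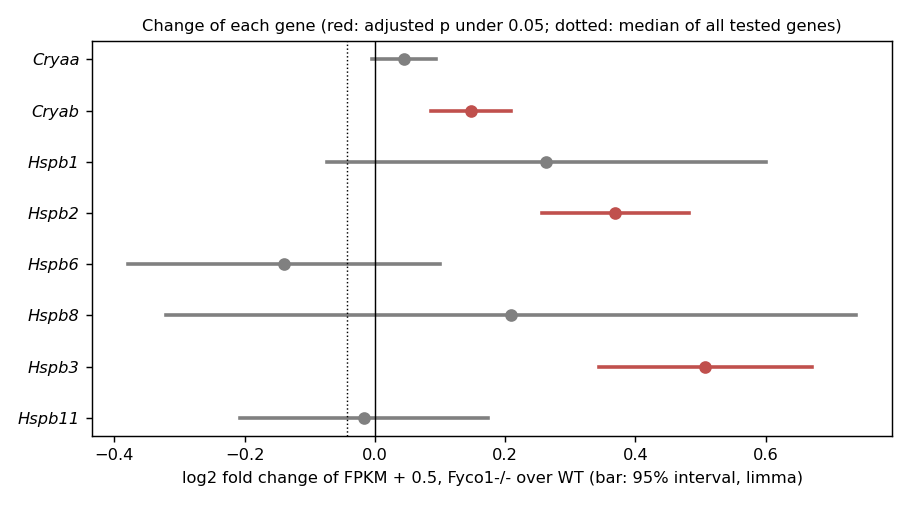
Log2 fold change of Fyco1-/- over WT for the 6 genes, Hspb3 and Hspb11 on the log2(FPKM + 0.5) scale, with limma's 95% confidence interval as a bar, red where called, and the median of all tested genes dotted. The intervals of Cryab, 0.09 to 0.21, Hspb2, 0.26 to 0.48, and Hspb3, 0.34 to 0.67, lie above 0, and the others include it.

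The lens-restricted subunit, Cryaa (ENSMUSG00000024041, chr17:31677807-31681733, plus strand), was not called. It stood at 114828, 114749 and 119181 FPKM in the WT pools (A to C) and at 117882, 119725 and 122145 FPKM in the Fyco1-/- pools (A to C). WT C lay above Fyco1-/- A, so the groups overlapped. The means were 116253 ± 2537 FPKM in WT and 119918 ± 2138 FPKM in Fyco1-/- (SD, n = 3 each), and the log2 fold change was 0.04 (SE 0.02, 95% interval -0.0038 to 0.09, limma adjusted p = 0.240). With median-of-ratios scaling the log2 fold change was 0.09 (adjusted p = 0.356), and the authors' deposited table also gives 0.09. An annotated antisense gene, AC090881.2, overlaps 273 of the 2076 exon bases of Cryaa, and reads of the shared stretch cannot be told apart without strand.

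Cryab (ENSMUSG00000032060, chr9:50751325-50756636, plus strand), the more widely expressed alpha subunit, was called higher by a small step. Its level was 7670, 7310.0 and 7512 FPKM in the WT pools (A to C) and 8236, 8143 and 8529.9 FPKM in the Fyco1-/- pools (A to C). Every Fyco1-/- library was above every WT library. The mean went from 7498 ± 181 to 8303 ± 202 FPKM (SD, n = 3 each), which is 1.11-fold, with a log2 fold change of 0.15 (SE 0.03, limma adjusted p = 0.00961). Leaving out 1 library gave log2 values of 0.13 to 0.16 and adjusted p-values of 0.0159 to 0.0400. The call was lost with median-of-ratios scaling, where the log2 fold change was 0.20 with an adjusted p of 0.0502, and with quantile normalization, which gives exactly 0 because Cryab holds the same rank in each library. The epithelium marker sum given above was lower in every Fyco1-/- library, and its part in the Cryab difference was not tested. In bulk lens RNA, more cells of a type and more RNA per cell cannot be told apart.

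The alpha subunits assemble together, so their ratio is given as well. The ratio of Cryaa to Cryab was 15.0, 15.7 and 15.9 in the WT pools (A to C) and 14.3, 14.7 and 14.3 in the Fyco1-/- pools (A to C). All Fyco1-/- ratios were below all WT ratios, with means of 15.5 ± 0.475 and 14.4 ± 0.223 (SD, n = 3 each), a difference of -1.07 or -6.87%. The exact two-sided permutation test gave p = 0.1, the smallest possible with 3 against 3. As a share of all crystallin FPKM, the alpha crystallins took 23.4 ± 0.203% in WT and 23.8 ± 0.255% in Fyco1-/- (exact permutation p = 0.1, n = 3 each), while all crystallins together took 70.8 ± 0.582% and 71.2 ± 0.407% of the summed FPKM (exact permutation p = 0.4, n = 3 each).

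**Figure D3:**
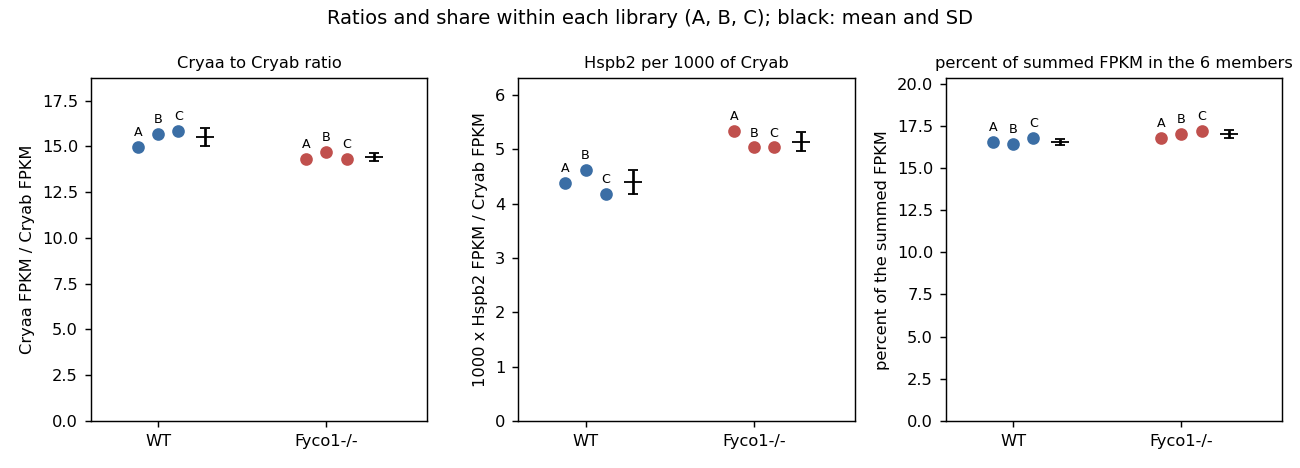
Ratio of Cryaa to Cryab, Hspb2 per 1000 of Cryab, and percent of the summed FPKM in the 6 genes, with 1 point per library, blue for WT and red for Fyco1-/-, and the mean and SD in black. The ratio of Cryaa to Cryab is lower in every Fyco1-/- library, at 14.3 to 14.7 against 15.0 to 15.9 in WT, and Hspb2 per 1000 of Cryab is higher in every one, at 5.04 to 5.35 against 4.18 to 4.62.

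Hspb2 (ENSMUSG00000038086, chr9:50751078-50752354, minus strand), known as a partner of the myotonic dystrophy kinase in muscle, is the head-to-head neighbour of Cryab. Its level was 33.6, 33.8 and 31.4 FPKM in the WT pools (A to C) and 44.0, 41.0 and 43.0 FPKM in the Fyco1-/- pools (A to C). The groups did not overlap, and the lowest Fyco1-/- library was well above the highest WT library. The mean rose 1.30-fold, from 32.9 ± 1.35 to 42.7 ± 1.52 FPKM (SD, n = 3 each), with a log2 fold change of 0.37 (SE 0.05, limma adjusted p = 0.00168). Hspb2 was called under all 15 alternatives run, with log2 fold changes of 0.33 to 0.42 and adjusted p-values of 0.000943 to 0.00870. An estimated 455 to 690 reads per library lie behind these values.

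The levels of these neighbours were also set against each other. Per 1000 FPKM of Cryab, Hspb2 had 4.38, 4.62 and 4.18 FPKM in the WT pools (A to C) and 5.35, 5.04 and 5.04 FPKM in the Fyco1-/- pools (A to C). These ratios did not overlap (means 4.39 ± 0.223 and 5.14 ± 0.178, SD, n = 3 each, exact two-sided permutation p = 0.1). The genes adjoin and partly overlap. Their main transcripts start 613 bases apart in opposite directions and share 0 exon bases. Through the first exon of the Cryab transcript that starts furthest upstream, 252 of the 834 exon bases of Hspb2, or 30.2%, are also exon bases of Cryab on the other strand, which is 17.0% of the 1479 of Cryab. Whether reads were counted by strand is not given in the sources used here, so reads from the shared bases cannot be told apart, and how far they contribute to the Hspb2 difference was not tested.

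**Figure D4:**
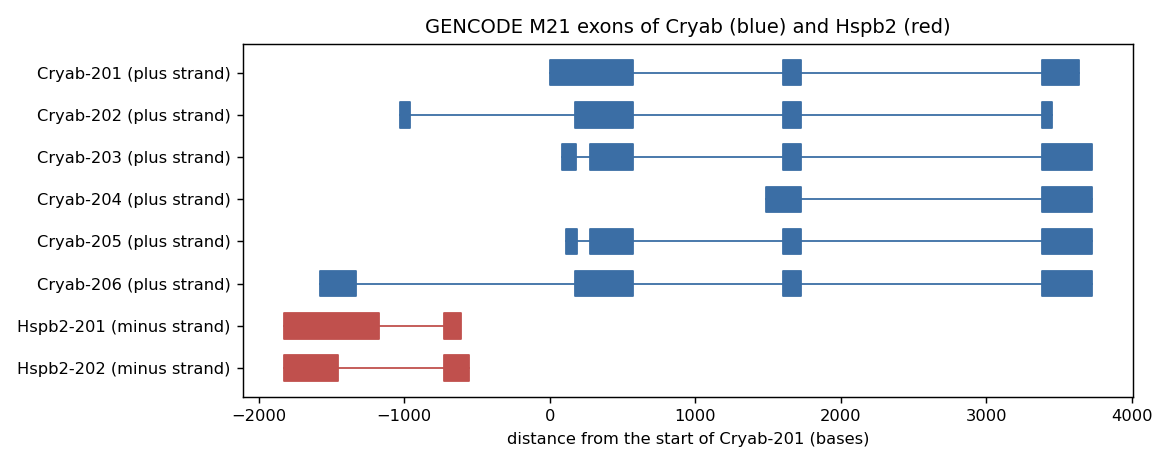
Map of the exons of Cryab and Hspb2 transcripts by distance in bases from the start of the main Cryab transcript (top line), blue for Cryab and red for Hspb2, with 1 line per transcript. The main transcripts, whose starts are 613 bases apart, share no exon, whereas the first exon of the Cryab transcript that starts furthest upstream lies over an exon of Hspb2.

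Other genes near the pair did not share its direction as a group. Of the 14 tested genes in the list of neighbours, all within 250 kb, 1 was higher and 3 were lower. That is 28.6% called, against 8.43% of all tested genes, and the median log2 fold change of the list was -0.13. Dixdc1, a gene of Wnt signalling, went from 4.35 ± 0.265 to 6.04 ± 0.437 FPKM (log2 0.43, limma adjusted p = 0.0130). Il18, a cytokine, fell from 5.94 ± 1.14 to 2.67 ± 0.882 FPKM (log2 -1.05, limma adjusted p = 0.0247, or 0.0543 without WT B). Pts, an enzyme of tetrahydrobiopterin synthesis, and 2310030G06Rik were also lower, with log2 fold changes of -0.39 and -0.64. Fyco1 is on the same chromosome, 73032863 bases from Cryab.

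Hspb3 (ENSMUSG00000051456, chr13:113662896-113663676, minus strand) is a muscle-enriched family gene whose protein forms a complex with that of Hspb2. It is not 1 of the 6 genes, but it changed in the same direction. Its level was 21.8, 18.5 and 21.8 FPKM in the WT pools (A to C) and 29.8, 31.1 and 27.8 FPKM in the Fyco1-/- pools (A to C), with no overlap. The mean rose 1.43-fold, from 20.7 ± 1.92 to 29.6 ± 1.67 FPKM (SD, n = 3 each, log2 0.51, SE 0.07, limma adjusted p = 0.00231), and it was called under all 15 alternatives run. Of the other genes on the family list, Hspb11 had mean levels of 5.70 ± 0.486 and 5.62 ± 0.285 FPKM in WT and Fyco1-/- (log2 -0.02, limma adjusted p = 0.927). Whether the Hspb11 protein has the alpha-crystallin domain was not examined. Hspb7, Hspb9 and Odf1 did not pass the filter, with highest values of 0.252, 0.705 and 0.104 FPKM. The muscle marker sum was higher in WT than in Fyco1-/- libraries, and its part in the levels of Cryab, Hspb2 and Hspb3 was not tested. Without WT B the log2 fold changes of these genes were 0.13, 0.39 and 0.43, with limma adjusted p-values of 0.0344, 0.00614 and 0.00611.

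Hspb1 (ENSMUSG00000004951, chr5:135887919-135889563, plus strand), the stress-inducible small heat shock protein that binds actin and intermediate filaments, varied more between pools than the alpha crystallins. Its level was 115, 154 and 139.9 FPKM in the WT pools (A to C) and 189, 157 and 145 FPKM in the Fyco1-/- pools (A to C). WT B lay above Fyco1-/- C, so the groups overlapped. The means were 136 ± 19.7 and 164 ± 22.7 FPKM (SD, n = 3 each), with a log2 fold change of 0.26 (SE 0.14, 95% interval -0.07 to 0.60, limma adjusted p = 0.311). The log2 fold change was 0.16 without Fyco1-/- A and 0.15 without WT A, and reached 0.36 without WT B. Its transcript is 99.4% identical to the pseudogene Hsp25-ps1 over 630 bases and 99.8% identical to Gm9817 over 493 bases, so the level is uncertain where reads fit both copies. Hsp25-ps1 was listed at no more than 0.098 FPKM.

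Hspb6 (ENSMUSG00000036854, chr7:30552178-30555443, plus strand), a phosphoprotein known from smooth and cardiac muscle, was the only member with a negative difference, which was not called. Its level was 7.33, 8.05 and 7.45 FPKM in the WT pools (A to C) and 5.65, 7.60 and 7.49 FPKM in the Fyco1-/- pools (A to C). Fyco1-/- A was the low library, and the other 2 lay within the WT range. The means were 7.61 ± 0.386 and 6.92 ± 1.10 FPKM (SD, n = 3 each), with a log2 fold change of -0.14 (SE 0.11, 95% interval -0.38 to 0.10, limma adjusted p = 0.474) that became -0.01 without Fyco1-/- A. Smooth muscle and pericyte markers summed to 26.7 to 37.1 FPKM in WT and 28.1 to 28.6 FPKM in Fyco1-/-, and 122 of the 2299 exon bases of Hspb6 overlap Proser3 on the other strand.

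Hspb8 (ENSMUSG00000041548, chr5:116408491-116422864, minus strand), which works with the co-chaperone Bag3 in delivering misfolded proteins to autophagy, was the scarcest of the 6, with an estimated 42 to 109 reads per library. Its level was 1.26, 1.84 and 1.64 FPKM in the WT pools (A to C) and 2.98, 1.27 and 1.71 FPKM in the Fyco1-/- pools (A to C). Fyco1-/- A was the highest of all 6 libraries, and the other 2 Fyco1-/- values lay within the WT range. The means were 1.58 ± 0.296 and 1.99 ± 0.889 FPKM (SD, n = 3 each), with a log2 fold change of 0.21 (SE 0.23, 95% interval -0.32 to 0.74, limma adjusted p = 0.636). Without Fyco1-/- A it was -0.06, so the sign rests on that library. Bag3, named after its values were seen, was at 3.54 ± 0.297 and 3.72 ± 0.656 FPKM (log2 0.06, limma adjusted p = 0.827). Fyco1-/- A thus held the highest values of Hspb1 and Hspb8 and the lowest of Hspb6.

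The authors' deposited table, made from the same 6 libraries, also gives DESeq2 results for these genes. In the authors' deposited table the log2 fold changes were 0.19 for Cryab (adjusted p = 0.000174), 0.39 for Hspb2 (adjusted p = 0.000143) and 0.50 for Hspb3 (adjusted p = 0.000109). For the others the authors' deposited table lists adjusted p-values of 0.215 for Cryaa, 0.276 for Hspb1, 0.842 for Hspb6 and 0.617 for Hspb8.

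The chaperone partners of the small heat shock proteins moved in both directions. ATP-driven HSP70 and its J-domain helpers refold what small heat shock proteins hold. Of 27 tested partners and HSP70 or HSP90 chaperones 4 were higher and 2 lower, with a median log2 fold change of 0.06. This is 22.2% called, against 8.43% of all tested genes. Dnajb1, the J-domain protein that works with HSP70 in releasing clients, rose from 81.0 ± 1.42 to 117 ± 6.50 FPKM (log2 0.53, limma adjusted p = 0.000125). Dnajb4, a close relative, went from 5.63 ± 0.786 to 8.18 ± 0.415 FPKM (log2 0.51, limma adjusted p = 0.0121). Stip1, which joins HSP70 and HSP90, and Dnajb2 were also higher, with log2 fold changes of 0.24 and 0.21. Hspa8, the constitutive HSP70, fell from 307 ± 4.47 to 243 ± 16.2 FPKM (log2 -0.34, limma adjusted p = 0.00172). Dnajb2 was not called with quantile normalization (adjusted p = 0.128).

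The factors known to drive these genes split as well. Hsf4, the heat shock factor of the postnatal lens, rose from 145 ± 1.62 to 171 ± 4.02 FPKM (log2 0.24, limma adjusted p = 0.00235). Among 14 tested heat shock factors and classic targets 2 were higher, Hsf4 and Dnajb1, and 2 were lower, Hspa8 and Serpinh1, the collagen chaperone, at 62.3 ± 4.09 and 43.6 ± 6.39 FPKM (limma adjusted p = 0.0141, or 0.0541 without WT B). These calls are 28.6% of that list, against 8.43% of all tested genes. Of 20 tested regulators of alpha crystallin transcription, Hsf4 was the only one called higher and 3 were lower, with a median log2 fold change of -0.07. The share called was 20%, again against 8.43%. Pitx3 fell from 85.3 ± 2.47 to 69.0 ± 3.59 FPKM (log2 -0.31, limma adjusted p = 0.00353), and Prox1 and Pax6 had log2 fold changes of -0.18 and -0.19. With median-of-ratios scaling Prox1 and Pax6 were not called (adjusted p = 0.115 and 0.0672). Pax6 also marks the lens epithelium, where 3 of 8 markers were lower and 0 higher (37.5% called, against 8.43% of all tested genes).

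The clients of the alpha crystallins changed in both directions. Of 17 tested genes, namely beta and gamma crystallins, beaded filament genes and Vim (named to define the list), 4 were higher and 5 lower. The median log2 fold change was -0.02, and 52.9% were called, against 8.43% of all tested genes. With median-of-ratios scaling 4 were higher and 1, Bfsp2, was lower. Cryga rose from 1527 ± 106 to 2856 ± 254 FPKM (log2 0.90) and Crygb, far more abundant, from 42212 ± 635 to 50242 ± 1022 FPKM (log2 0.25). Bfsp2, a beaded filament protein that binds alpha crystallin, was lower, at 1736 ± 42.5 and 91.9 ± 21.1 FPKM (log2 -4.26, limma adjusted p = 0.000141). Crygf and Crybb2 moved by log2 fold changes of -0.22 and 0.53, but were not called with median-of-ratios scaling (adjusted p = 0.0825) and quantile normalization (adjusted p = 0.0672), respectively. Among 11 tested kinases and phosphatases that set small heat shock phosphorylation, 0 were called by limma, 2 had an unadjusted p under 0.05, both lower, and 0 were called in the authors' deposited table. Without WT B, Map2k6, named after its values were seen, was called lower (log2 -0.63, limma adjusted p = 0.0184). The most abundant of them were Prkaca, at 38.3 ± 1.32 and 38.2 ± 1.6 FPKM, and Mapk3, at 35.6 ± 1.94 and 32.2 ± 2.31 FPKM.

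**Figure D5:**
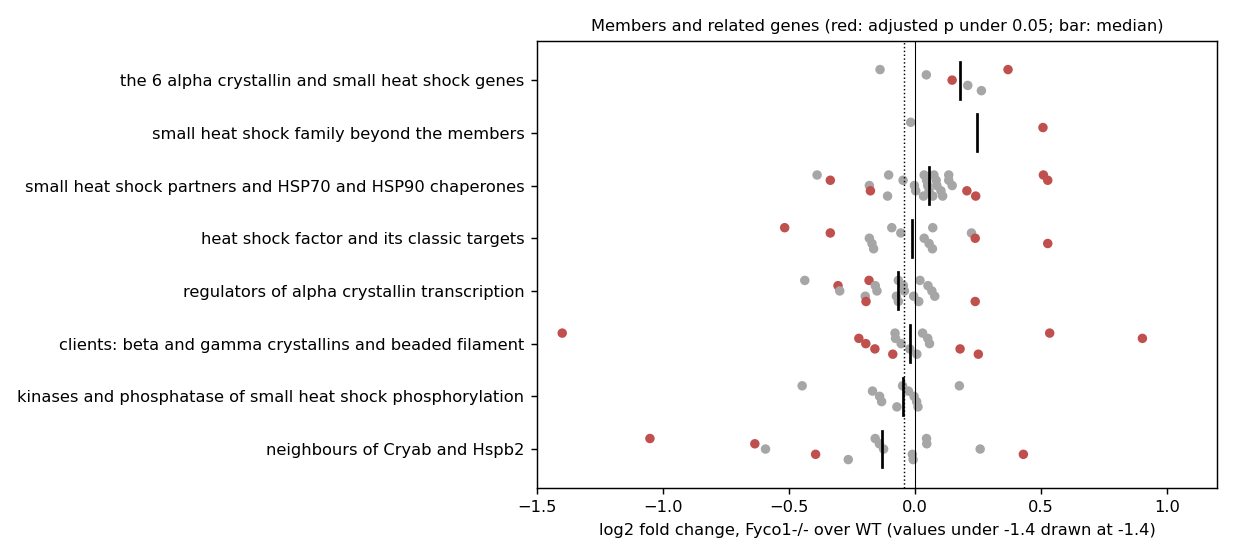
Log2 fold change of Fyco1-/- over WT for each tested gene of the 6 and of the related lists, 1 point per gene, red where the limma adjusted p was under 0.05. Solid bars mark list medians and the dotted line the median of all tested genes, -0.04, and points of both signs occur in every list.

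The pattern over the 6 libraries was described further by likeness, the Pearson correlation of log2(FPKM + 0.5) with each of 12000 other tested genes. These correlations share the libraries and their depth, and a genotype difference alone makes many genes alike. For Hspb2, 437 genes or 3.64% had an r above 0.9, led by Tusc1 (0.998), Pabpc1 (0.996) and Prkca (0.994). For Cryab it was 278 genes or 2.32%, led by RP24-276M8.1, Atp6v0a4 and Rasl2-9, each at 0.99. The uncalled members had fewer such genes, with 85 for Hspb1, 74 for Hspb6, 57 for Hspb8 and 46 for Cryaa. The genes most like Cryaa were Pcyt1b, Cntrl and Txndc12 (each 0.97), and those most like Hspb1 were Slc4a4 (0.99), Nenf (0.98) and Slc25a33 (0.98). Actr3b, Rchy1 and Rimklb (each 0.98) were most like Hspb6, and Ep300, Kifc3 and Lysmd4 (0.99, 0.99 and 0.98) most like Hspb8. Among the members, Cryab and Hspb2 were the most alike pair by Pearson's r, with r = 0.92 over the 6 libraries (rho 0.77), and Hspb1 and Hspb8 had r = 0.79 (Spearman's rho 0.66). Hspb6 and Hspb8 had r = -0.78 but a rho of -0.03, with Fyco1-/- A the highest library for Hspb8 and the lowest for Hspb6.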

How the data were processed

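Per the labels and the submitters' design text, paired reads from NEB Next Ultra libraries were aligned to GRCm38/mm10 with STAR 2.5 and counted per gene with HTSeq 0.6.1. The authors deposited FPKM values, 1 column per library. The gene annotation, the strand setting and the total used for scaling are not given in the sources used here. The same deposited table holds the authors' log2 fold changes, p-values and adjusted p-values from DESeq2. No counts were used.

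The 12001 entries with a mean FPKM of at least 0.5 entered a linear model of log2(FPKM + 0.5) on genotype, fitted with limma 3.58.1 (R 4.3.3, trended and robust variance moderation). The p-values are two-sided, and were adjusted over all of them by Benjamini-Hochberg, and genes under 0.05 were called. The fold changes of this log2 scale understate the change of low genes, while fold values are ratios of mean FPKM. Ratios and shares were compared by exact two-sided permutation. Only the main limma fit was tried on simulated data, with independent normal noise in each gene. The permutation tests, the depth estimates and the other scalings were not tried in this way. The alternatives were pseudocounts of 0.1 and 1, no filter, moderation that is not robust, a filter of at least 1 FPKM in 3 libraries, quantile normalization, median-of-ratios scaling, totals without crystallins, a replicate block, and leaving out each library.

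Of the entries, 93.1% matched 1 gene of GENCODE M21 by symbol, from which positions and exon lengths come. Depth and reads per gene are estimates from the steps between small FPKM values, 50.0 to 52.2% of which lay within 0.05 of a whole read, so that no counting intervals are given. Near-identical sequences were sought with blastn 2.17.0 (at least 95% identity over 100 bases).

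The members and gene lists were chosen with earlier results of these data known. The named genes are the members, the other genes on the family list, up to 5 called genes of each list by p (the 2 most abundant where none was called), and the 3 tested genes most correlated with each member. Genes named outside this rule are marked in the text.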

Additional observations from a re-analysis of the deposited data

How the results depend on the processing

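Over all tested genes, 1012 were called. The number was 568 with no filter on low values and 611 to 870 when 1 library was left out. Median-of-ratios scaling raised the share of calls that were higher in Fyco1-/- from 40.5 to 57.0%. Cryab lost its call with quantile normalization (log2 0) and median-of-ratios scaling (log2 0.20), and kept it in its other 13 alternatives. The log2 fold change of Hspb8 ran from -0.063 without Fyco1-/- A to 0.43 without Fyco1-/- B. Cryaa, Hspb1, Hspb2, Hspb3 and Hspb6 kept their side of the threshold in all 15 alternatives and did not change sign, although Cryaa was exactly 0 with quantile normalization, where its rank fixes its value. Letters shared between genotypes gave no pairing, since deviations of same-lettered libraries correlated at -0.03, 0.03 and 0.03. With the letter as a replicate block 929 genes were called, with an adjusted p of 0.0286 for Cryab and 0.00717 for Hspb2. The counts in the related lists under other scalings and without WT B, and all alternatives for Hspb3, were added after seeing the data.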
